A study of Mus musculus with 16 samples.

Results

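The 7 genes described here, Prdm1, Dazl, Ddx4, Mael, Hormad1, Sycp3 and Sycp1, were chosen by name as genes of the germline and of meiosis, and each matched 1 of the 41202 Ensembl identifiers in the deposited expression table. They were followed in mouse embryonic stem cells in 4 groups of 2 libraries (8 in all), described as total RNA in the design text and as polyA RNA in the sample labels. The wild-type line is labelled v65 in the column names and the Dgcr8-/- line is titled ES1. Each was taken in 2iL (medium with inhibitors of MEK and GSK3 plus LIF, which holds cells in naive pluripotency) and after 48 h in N2B27 with bFGF and KSR, which the table's name associates with epiblast-like cells. All groups carry the strain label 129/C57BL/6 and came from passages labelled 9-11. With 1 line for each genotype, genotype and cell line cannot be told apart. The 8 small RNA libraries of the series hold none of these messenger RNAs and were not used here.

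Germ cells arise in the mouse when a few epiblast cells are set aside as primordial germ cells, and only much later do their descendants enter meiosis. Prdm1 (Blimp1) is a zinc-finger repressor that helps to specify primordial germ cells, and it also acts in endoderm and in plasma cells. Dazl binds messenger RNAs in germ cells and licenses them for sexual differentiation, Ddx4 (the mouse vasa homologue) is an RNA helicase of germ granules, and Mael acts with the piRNA pathway against transposons. Hormad1, Sycp3 and Sycp1 build the meiotic chromosome: Hormad1 and Sycp3 lie on the axis of each homologue, and Sycp1 forms the transverse filaments that zip the homologues together. In embryonic stem cells many such genes are kept low by a Polycomb complex that contains MGA, MAX and E2F6, and by DNA methylation. MGA and MAX bind the E-box and E2F6 binds an E2F-type motif. Dgcr8 is the partner of Drosha in the first cut that releases most miRNA precursors.

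The stretches upstream of 1 transcript start of each gene are shown because 5 of the 7 carry the E-box, the motif named above. The search covered the 250 bases before the first RefSeq transcript start listed for the gene (GRCm38.p6), on both strands. It looked for the palindromic E-box CACGTG and for the E2F-type motif GCGGGAA or its reverse complement TTCCCGC. Other starts were not searched. No matches overlapped in the 7 windows. Matches are printed in capitals, and each sequence reads 5′ to 3′ on the strand of the gene.
Sycp3: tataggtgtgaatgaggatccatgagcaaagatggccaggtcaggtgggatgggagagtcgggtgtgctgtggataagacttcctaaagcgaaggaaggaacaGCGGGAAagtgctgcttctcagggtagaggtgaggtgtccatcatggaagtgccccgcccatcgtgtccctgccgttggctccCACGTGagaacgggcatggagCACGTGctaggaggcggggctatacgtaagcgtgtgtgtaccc
Hormad1: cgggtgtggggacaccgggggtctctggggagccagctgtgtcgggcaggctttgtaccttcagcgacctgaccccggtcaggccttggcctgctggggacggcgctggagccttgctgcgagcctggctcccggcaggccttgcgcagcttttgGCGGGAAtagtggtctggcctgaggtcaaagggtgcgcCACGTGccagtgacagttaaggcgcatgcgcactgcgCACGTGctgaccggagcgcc
Ddx4: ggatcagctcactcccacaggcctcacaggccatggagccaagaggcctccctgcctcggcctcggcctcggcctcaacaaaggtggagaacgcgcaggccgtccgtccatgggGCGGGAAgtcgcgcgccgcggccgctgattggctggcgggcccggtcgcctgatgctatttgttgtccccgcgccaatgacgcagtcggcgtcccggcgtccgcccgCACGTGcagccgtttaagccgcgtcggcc
Mael: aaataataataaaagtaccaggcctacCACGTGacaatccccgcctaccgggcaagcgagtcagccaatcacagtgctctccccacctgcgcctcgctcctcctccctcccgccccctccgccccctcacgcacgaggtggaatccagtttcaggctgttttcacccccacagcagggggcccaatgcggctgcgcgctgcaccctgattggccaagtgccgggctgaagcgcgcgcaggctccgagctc
Sycp1: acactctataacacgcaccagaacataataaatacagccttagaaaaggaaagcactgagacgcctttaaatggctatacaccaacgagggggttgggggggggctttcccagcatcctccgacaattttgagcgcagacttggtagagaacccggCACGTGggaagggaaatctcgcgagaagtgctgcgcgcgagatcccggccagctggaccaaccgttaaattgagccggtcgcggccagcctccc
Sycp3 (chr10:88459337-88459586, plus strand) and Hormad1 (chr3:95559427-95559676, plus strand) each held 2 E-boxes and 1 E2F-type motif. Ddx4 (chr13:112652311-112652560, minus strand) held 1 of each. Mael (chr1:166238745-166238994, minus strand) and Sycp1 (chr3:102936101-102936350, minus strand) held 1 E-box. In Sycp3 the E-boxes began 64 and 43 bases before the start, in Hormad1 57 and 20, in Ddx4 29, in Sycp1 94 and in Mael 223. No match of either motif lay in the window of Dazl (chr17:50293621-50293870, minus strand) or of Prdm1 (chr10:44458749-44458998, minus strand). The windows of Prdm1 and Ddx4 lie inside the RefSeq gene bodies (chr10:44437174-44528558 and chr13:112598333-112652633), before an internal start.

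Among the windows of all 27025 genes with one, the first listed for each, 6.05% held an E-box, 3.84% an E2F-type motif and 0.326% both, against 5, 3 and 3 of the 7. At least 2 E-boxes were present in 0.448% of all windows. The E-box was not limited to the 7 genes among the lists described below. It lay in 4 of 13 windows of the piRNA list and 3 of 11 of the synaptonemal complex list. It also lay in 6 of 19 windows of the methylation-silenced list and 2 of 8 of the oocyte list. For meiotic entry it lay in 1 of 15, for primordial germ cell specification in 0 of 9 and for the repressors in 2 of 22. The 7 windows held 12 to 31 CpG dinucleotides, from Sycp3 to Ddx4, and their ratio of observed to expected CpG ran from 0.639 in Sycp3 to 1.0 in Ddx4, against a median of 0.378 over all windows. Both motifs contain a CpG, and a comparison with windows of similar CpG content was not made. A match describes letters and shows no binding.

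**Figure D1:**
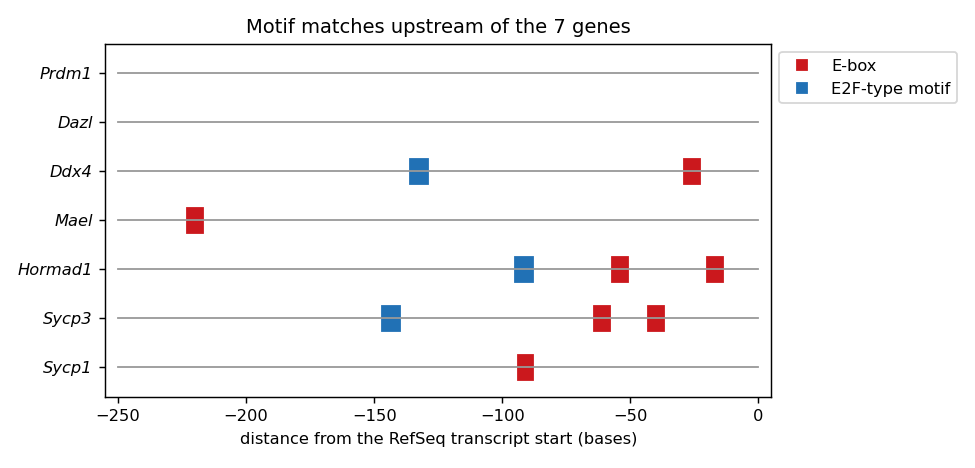
Positions of E-box (red) and E2F-type (blue) matches in the 250 bases upstream of the first listed RefSeq transcript start (x axis, bases) of the 7 genes (y axis). Boxes are drawn to scale. Sycp3 and Hormad1 each show 2 red boxes and 1 blue box, and Dazl and Prdm1 show none.

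Marker genes were read beside the labels. The 7 embryonic stem cell markers summed to 1703 to 1737 FPKM in wild-type 2iL libraries and 1933 to 2013 in knockout 2iL libraries, and at 48 h to 757.6 to 800.3 in wild-type and 1220 to 1293 in knockout libraries. The 5 formative markers went from 104.1 to 114.4 FPKM in 2iL to 652.8 to 666.9 at 48 h in wild-type libraries, and from 60.47 to 63.78 to 246.3 to 256.3 in the knockout. At 48 h the stem cell sum was thus higher in the knockout and the formative sum lower than in the wild type. The part of this in the genotype differences below was not tested. Most of the stem cell sum at 48 h was Pou5f1, at 737.9 and 694.8 FPKM in wild-type and 873.6 and 820.8 in knockout libraries. The sum thus hides steeper falls. Nanog went from 207.8 and 216.5 FPKM in wild-type 2iL libraries to 5.38 and 5.31 at 48 h. In the knockout it went from 273.3 and 297.5 to 56.1 and 56.7. Most of the formative sum was Dnmt3b, at 556.4 and 548.7 FPKM in wild-type and 192.0 and 186.7 in knockout 48 h libraries. Of the 5 formative markers Otx2 alone went the other way, at 41.2 and 38.0 FPKM in knockout against 26.9 and 26.7 in wild-type 48 h libraries. Dgcr8 remained detectable in the knockout at 7.80 to 9.33 FPKM, against 18.3 to 20.9 in wild-type libraries. The value is for the whole gene, and the labels do not give which part was deleted. None of the 6 endoderm markers reached 1 FPKM in 2 libraries. Of 8 somatic gonad markers only Wt1 did, and Nr5a1 was listed at 0 in both libraries of each 48 h group. Of 8 fibroblast and feeder markers 3 did, Thy1, Tagln and Dcn, and the list summed to 2.91 to 3.16 FPKM in wild-type and 2.23 to 2.29 in knockout 2iL libraries, against at least 20.9 and at least 19.0 at 48 h. The collagen genes Col1a1, Col1a2 and Col3a1 stayed below 1 FPKM throughout. Whether any fibroblast or feeder cells were present, and their part in the 48 h changes below, was not tested. The depth of the libraries is unknown, because FPKM keeps no read number. The summed FPKM was 475271.1 to 548453.3 per library, and replicate libraries had correlations of 0.9871 to 0.9907 across genes on the log2 scale, where genes are not independent replicates. In bulk RNA, fewer cells that express a gene and less RNA per cell cannot be told apart.

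The 7 genes were expressed at low to moderate levels and did not share a course. Ddx4, Mael, Sycp3 and Sycp1 were highest in wild-type cells at 48 h, Prdm1 and Dazl in knockout 2iL cells, and Hormad1 in both knockout groups. FPKM is scaled by gene length, so levels can be compared between genes: Hormad1 was the highest of the 7 in wild-type 2iL, at a mean of 6.58 FPKM ± 0.236 (SD, n = 2), and Sycp1 the lowest, at 0.154 ± 0.00578. Prdm1 followed Hormad1 at 3.50 ± 0.425, then Ddx4 at 2.06 ± 0.0773 and Sycp3 at 1.91 ± 0.0644. Dazl at 1.11 ± 0.127 and Mael at 0.817 ± 0.203 lay next to each other. Ranges of the neighbouring genes did not overlap in that group. At 48 h the wild-type order was led instead by Sycp3, at 6.61 ± 1.12, and Ddx4, at 5.66 ± 0.377, whose ranges overlapped. Mael followed at 4.95 ± 0.227, and Prdm1 was last at 0.223 ± 0.0622.

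**Figure D2:**
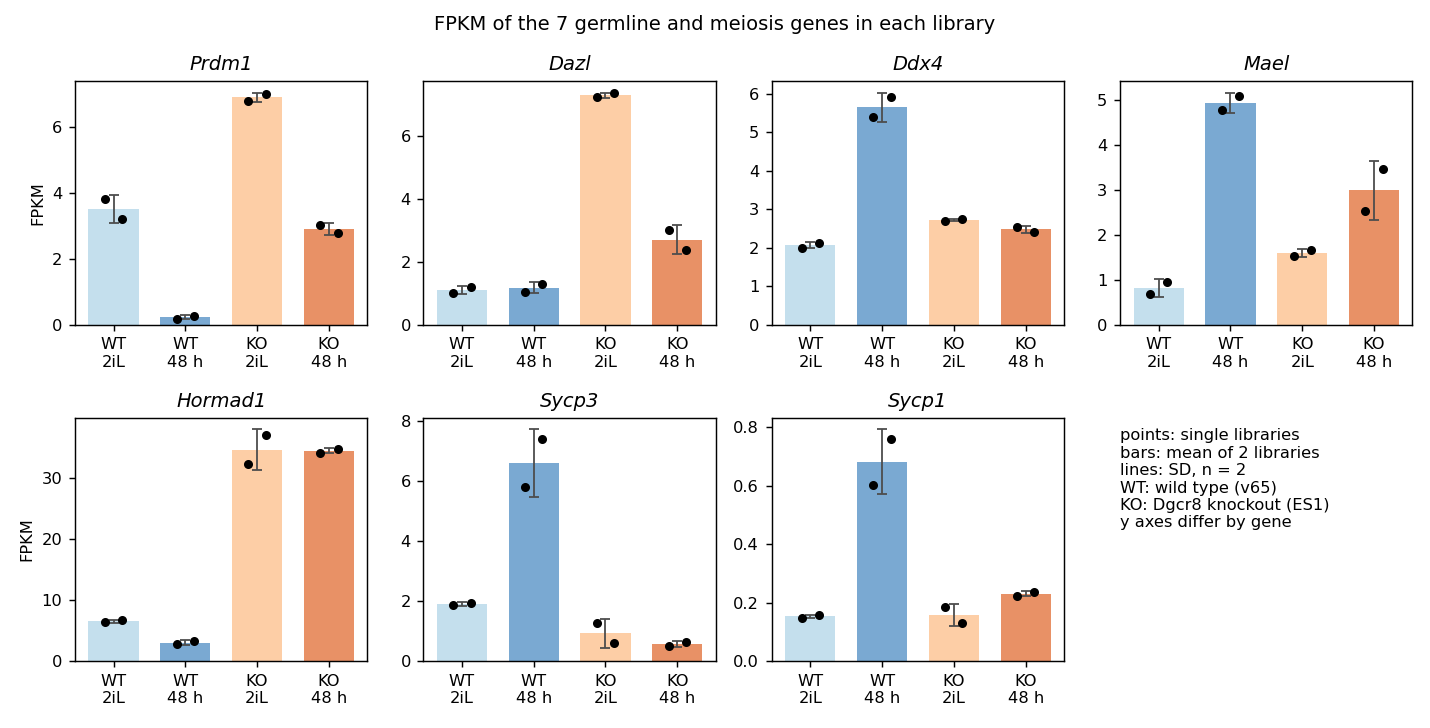
FPKM of each gene (y axes, linear from 0, own scale for each gene) in wild-type (WT) and Dgcr8 knockout (KO) cells in 2iL and at 48 h; bars are means of 2 libraries, lines the SD and points single libraries. Hormad1 stands at 32.3 to 37.1 FPKM in all 4 knockout libraries and at 2.81 to 6.75 in the wild-type ones.

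Prdm1, the gene of germ cell specification, was high in 2iL and fell in both genotypes. Wild-type replicates gave 3.80 and 3.20 FPKM before differentiation and 0.179 and 0.267 after it. In the knockout Prdm1 stood at 6.79 and 6.99 FPKM in 2iL and at 3.03 and 2.77 at 48 h. The knockout libraries at 48 h thus lay just under the wild-type 2iL libraries, and the wild-type libraries at 48 h lay far below all others. The log2 change of FPKM + 1 was −1.88 in wild-type cells (SE 0.10, limma adjusted p = 4.9e-06) and −1.02 in the knockout (SE 0.10, adjusted p = 1.5e-04). With a pseudocount of 0.1 the wild-type change of Prdm1 was −3.49, the difference between genotypes at 48 h was 3.23 and the difference between the changes was 2.26.

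The difference between these 2 changes of Prdm1 was 0.86 (SE 0.14, limma adjusted p = 0.0024), so the fall was smaller in the knockout line. Prdm1 was higher in the knockout in 2iL by 0.81 (SE 0.10, adjusted p = 2.8e-04) and at 48 h by 1.67 (SE 0.10, adjusted p = 5.3e-06). On the linear scale the knockout mean at 48 h was 13.0 times the wild-type mean.

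Dazl, the RNA-binding protein of germ cells, was high in knockout 2iL cells and low elsewhere. It stood at 1.02 and 1.20 FPKM in wild-type 2iL libraries and at 1.05 and 1.31 at 48 h, and these ranges overlapped. In the knockout it stood at 7.23 and 7.35 FPKM in 2iL and at 3.02 and 2.38 at 48 h. All 4 knockout libraries lay above all 4 wild-type libraries. Dazl did not pass the test in wild-type cells (log2 difference 0.05, 95% interval −0.22 to 0.32, limma adjusted p = 0.76). It fell in the knockout by 1.17 (SE 0.12, adjusted p = 1.7e-04), and the 2 changes differed by −1.22 (SE 0.16, adjusted p = 0.0010). The excess in the knockout was 1.98 in 2iL (SE 0.12, adjusted p = 9.7e-06) and 0.76 at 48 h (adjusted p = 6.7e-04).

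Ddx4, the germ granule helicase, rose in wild-type cells, from 2.01 and 2.12 FPKM in 2iL to 5.39 and 5.93 at 48 h. Knockout replicates gave 2.70 and 2.75 FPKM before differentiation and 2.54 and 2.41 after it. The wild-type libraries at 48 h were the highest 2 of the 8, and the knockout libraries differed little among themselves. The wild-type rise was 1.12 on the log2 scale (SE 0.08, limma adjusted p = 2.4e-05). The knockout difference was −0.10 (95% interval −0.29 to 0.09, adjusted p = 0.35). The 2 changes differed by −1.22 (SE 0.11, adjusted p = 2.1e-04). In 2iL Ddx4 was called slightly higher in the knockout (0.28, SE 0.08, adjusted p = 0.018), a call that ended with quantile scaling (0.12, adjusted p = 0.236) and with only the 2 groups in the fit (adjusted p = 0.0502). It also ended on leaving out wild-type 2iL replicate 1 (adjusted p = 0.0754), and the adjusted p was 0.0521 and 0.0628 on leaving out knockout 2iL replicates 1 and 2. At 48 h it was lower in the knockout by −0.94 (SE 0.08, adjusted p = 3.7e-05).

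Mael, of the piRNA pathway, rose in both genotypes. Mael measured 0.674 and 0.961 FPKM in the wild-type 2iL pair and 4.79 and 5.11 in the 48 h pair. The knockout pairs measured 1.54 and 1.66 FPKM, then 2.54 and 3.47. The knockout thus began above the wild type and ended below it, with no overlap in either condition. The same lack of overlap between genotypes held for 80.8% of all tested entries in 2iL and 86.8% at 48 h. The rise was 1.71 in wild-type cells (SE 0.14, limma adjusted p = 3.5e-05) and 0.61 in the knockout (SE 0.14, adjusted p = 0.0079), and the changes differed by −1.10 (SE 0.19, adjusted p = 0.0033). The excess in knockout 2iL cells (0.52, adjusted p = 0.012) was 0.90 with a pseudocount of 0.1. It was no longer called once wild-type 2iL replicate 1 was dropped (adjusted p = 0.0703), nor once knockout 2iL replicate 2 was (adjusted p = 0.0545). At 48 h the knockout was lower by −0.58 (adjusted p = 0.0060).

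Hormad1, an axis protein that marks unsynapsed meiotic chromosomes, was higher in the knockout in both conditions. It measured 6.41 and 6.75 FPKM in the wild-type 2iL pair and 2.81 and 3.34 in the 48 h pair. The knockout pairs measured 32.3 and 37.1 FPKM, then 34.2 and 34.8. Every knockout library was above every wild-type library, and the knockout ranges in 2iL and at 48 h overlapped. Hormad1 fell in wild-type cells by 0.90 on the log2 scale (SE 0.09, limma adjusted p = 1.2e-04). In the knockout the log2 difference was below 0.01 in size (95% interval −0.21 to 0.21, adjusted p = 0.99). The changes differed by 0.89 (SE 0.12, adjusted p = 0.0012). The excess in the knockout was 2.23 in 2iL (SE 0.09, adjusted p = 2.3e-06) and 3.13 at 48 h (SE 0.09, adjusted p = 2.5e-07), ranking 157 and 125 by size among 13172 tested entries. The mean in the knockout was 5.27 times the wild-type mean in 2iL and 11.2 times at 48 h.

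Sycp3, the other axis protein, went the opposite way. Sycp3 measured 1.87 and 1.96 FPKM in the wild-type 2iL pair and 5.82 and 7.41 in the 48 h pair. The knockout pairs measured 1.28 and 0.599 FPKM, then 0.508 and 0.654. All 4 knockout libraries were below all wild-type libraries, and the 2 knockout 2iL libraries lay farther apart from each other than those at 48 h. Sycp3 rose in wild-type cells by 1.38 (SE 0.18, limma adjusted p = 4.9e-04). The knockout difference was −0.27 (95% interval −0.70 to 0.15, adjusted p = 0.25), but it was −0.53 (adjusted p = 0.034) without knockout 2iL replicate 2. The changes differed by −1.65 (SE 0.26, adjusted p = 0.0019). At 48 h Sycp3 was lower in the knockout by −2.26 (SE 0.18, adjusted p = 2.4e-05), and the wild-type mean was 11.4 times the knockout mean. In 2iL it was called lower by −0.61 (adjusted p = 0.021), or −1.03 with a pseudocount of 0.1. That call ended with no expression filter (adjusted p = 0.0600) and when any of 3 libraries was dropped: wild-type 2iL replicate 1 (adjusted p = 0.0661) or 2 (0.0823), and knockout 2iL replicate 2 (difference −0.35, adjusted p = 0.0943). In RefSeq the gene body of Sycp3 overlaps that of Chpt1, Hormad1 that of Gm40097 and Sycp1 that of Gm33866, and whether counting used strand is not given in the sources used here.

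Sycp1, the transverse filament protein, stayed below 1 FPKM in every library and so did not enter the main test. Wild-type replicates gave 0.149 and 0.158 FPKM before differentiation and 0.603 and 0.760 after it. The knockout pairs gave 0.184 and 0.132 FPKM, then 0.225 and 0.238. The wild-type libraries at 48 h were again the highest 2 of the 8. In the fit with no filter, over 23014 entries, Sycp1 rose in wild-type cells by 0.54 (SE 0.06, limma adjusted p = 8.4e-04). In that fit the knockout difference was 0.09 (adjusted p = 0.31), and the changes differed by −0.45 (adjusted p = 0.010).

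The calls on the 6 tested genes were read against the share of all entries called, which was high in each comparison. In wild-type cells 5 of 6 changed by 48 h, against 56.5% of the 13172 entries. Of these, Ddx4, Mael and Sycp3 rose (30.9% of all entries rose) and Prdm1 and Hormad1 fell (25.6%). In the knockout 3 of 6 changed, against 48.3%: Mael rose (26.5%), and Prdm1 and Dazl fell (21.8%). In 2iL all 6 differed between genotypes, against 63.4%, with Sycp3 alone lower in the knockout (32.8%) and the other 5 higher (30.6%). At 48 h all 6 differed, against 71.8%: Prdm1, Dazl and Hormad1 were higher in the knockout (33.3%) and Ddx4, Mael and Sycp3 were lower (38.5%). The 48 h change differed between genotypes for all 6, against 42.8%. The difference was positive for Prdm1 and Hormad1 (21.1%) and negative for Dazl, Ddx4, Mael and Sycp3 (21.7%). Sycp3, Prdm1 and Mael reached 1 FPKM in 5, 6 and 6 of the 8 libraries, so the filter favoured the groups in which they were high. Ranges that did not overlap, as given above for single genes, were common with 2 libraries a group. Between genotypes they were found for 80.8% of the 13172 entries in 2iL and 86.8% at 48 h. Between 48 h and 2iL the share was 79.7% in wild-type and 74.2% in knockout cells. The 4 comparisons between 2 groups share libraries and are not independent of each other.

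**Figure D3:**
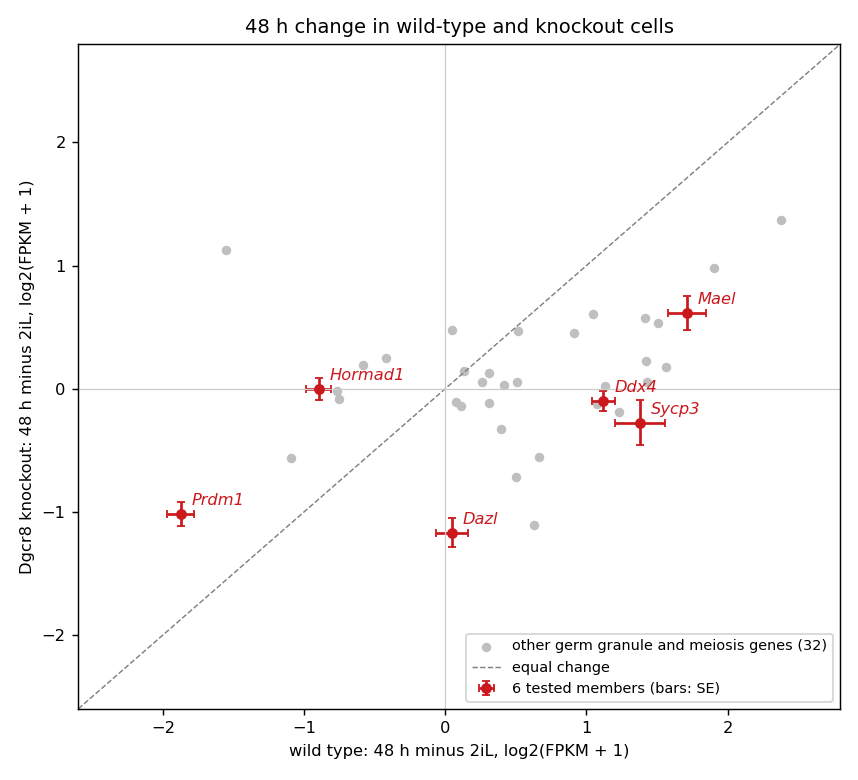
Log2 difference of FPKM + 1 between 48 h and 2iL in wild-type cells (x axis) and in Dgcr8 knockout cells (y axis) for the 6 tested genes (red, bars are SE) and 32 other germ granule and meiosis genes (grey); the dashed line marks equal change. Ddx4 and Sycp3 lie right of 1 and near or under 0 on the knockout axis, and Dazl lies near 0 for the wild type and at −1.17 for the knockout.

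**Figure D4:**
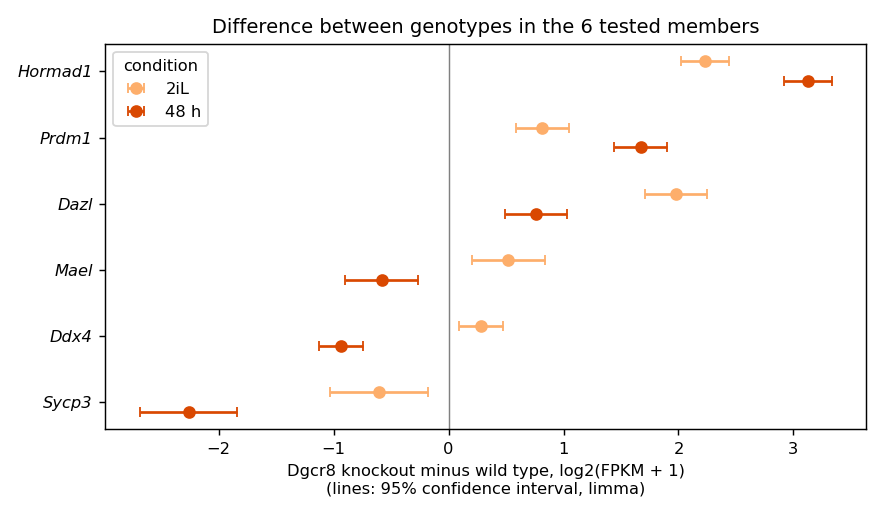
Difference between Dgcr8 knockout and wild type in log2(FPKM + 1) (x axis) for the 6 tested genes (y axis) in 2iL (light) and at 48 h (dark), with 95% confidence intervals from limma. Hormad1 lies farthest right at 2.23 and 3.13, Sycp3 is left of 0 in both conditions, and Ddx4 and Mael are right of 0 in 2iL and left of it at 48 h.

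Other genes of the piRNA pathway and germ granule were listed beside Ddx4 and Mael. Of 15 such genes 10 were tested. In wild-type cells 6 rose and 2 fell by 48 h, against 30.9% and 25.6% of all entries, and the median log2 change was 1.09 against 0.03 over all entries. Tdrkh and Tdrd1 reached 1 FPKM only in the wild-type 48 h libraries (at most 0.416 and 0.350 FPKM elsewhere), so the filter admitted them through the group in which they were high, and this count and median, and the interaction count that follows, lean on it. The tudor-domain genes Tdrkh (0.306 to 2.86 FPKM in the mean, log2 1.56, SE 0.10), Tdrd1 (0.0351 to 1.79, log2 1.43) and Tdrd5 (1.03 to 3.80, log2 1.23) rose, as did the helicase Ddx25 (1.70 to 6.21, log2 1.41). In the knockout 2 rose and 1 fell (26.5% and 21.8% of all entries), with a median of 0.06: Piwil2, a PIWI protein that carries piRNAs, rose from 4.69 to 7.67 FPKM (log2 0.61), Ddx25 rose by 0.57, and Tdrd12 fell by 0.56. The means of Piwil2 and Tdrd12 moved the same way in wild-type cells, from 1.68 to 4.52 and from 52.4 to 24 FPKM. The change differed between genotypes for 8 of the 10, against 42.8% of all entries. It was positive for 2 (21.1%) and negative for 6 (21.7%), including Tdrd5 (−1.42), the piRNA helicase Mov10l1 (−1.11), Tdrkh (−1.38) and Tdrd1 (−1.37). The filter favoured all 4 of these. Tdrd5 and Mov10l1 reached 1 FPKM only in wild-type libraries, with at most 0.676 and 0.838 FPKM in the knockout. Tdrd5 was lower in the knockout at 48 h by −1.73, a value that leans on the filter in the same way. Piwil1, Piwil4, Tdrd6, Tdrd9 and Asz1 did not pass the filter.

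Of 11 other genes of the synaptonemal complex and meiotic cohesin, 8 were tested, and 3 rose and 2 fell in wild-type cells (median log2 0.21), shares near the 30.9% and 25.6% of all entries. Six6os1, a central-element gene named 4930447C04Rik in the annotation used, rose from 4.98 to 30.0 FPKM (log2 2.38, SE 0.11), and in the knockout from 3.74 to 11.3 (1.37). Syce3, also of the central element, rose by 1.51 in wild-type cells, but it reached 1 FPKM only in those 48 h libraries (at most 0.852 FPKM elsewhere) and so entered the test through them. Hormad2, the paralogue of Hormad1, was low in the knockout where Hormad1 was high: its mean was 0.2998 FPKM against 12.6 in 2iL (log2 −3.40, SE 0.21, limma adjusted p = 1.2e-05) and 0.509 against 8.10 at 48 h (−2.62). Hormad2 reached 1 FPKM only in wild-type libraries (at most 0.827 FPKM in the knockout), so the filter favoured these differences. Syce2 was lower in the knockout, at 24.5 against 98.3 FPKM in 2iL (−1.97). The cohesins Rec8 (18.3 against 3.97 FPKM, 2.00) and Smc1b (2.10 against 0.193, 1.37) were higher there. Smc1b reached 1 FPKM only in knockout libraries (at most 0.255 FPKM in wild-type ones), so the filter favoured it. Rec8 was not called between genotypes at 48 h (0.26, limma adjusted p = 0.34), and its wild-type 2iL libraries gave 5.28 and 2.67 FPKM. In all, 2 of the 8 were higher and 4 lower in the knockout in 2iL, against 30.6% and 32.8% of all entries. At 48 h 1 was higher and 5 lower, against 33.3% and 38.5%. The counts in both conditions include Smc1b and Hormad2, and those at 48 h also Syce3, so they lean on the filter.

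For meiotic entry and recombination 14 of 21 genes were tested, of which 9 rose and 2 fell in wild-type cells (median log2 0.46), against 30.9% and 25.6% of all entries. In the knockout 4 rose and 3 fell (median 0.08), near the 26.5% and 21.8% of all entries. Meioc, which prolongs the meiotic programme, rose from 0.469 to 4.50 FPKM in wild-type cells (1.90) and from 1.04 to 3.05 in the knockout (0.98). The strand-exchange recombinase Dmc1 rose from 2.79 to 7 FPKM in wild-type cells (1.07, SE 0.11, limma adjusted p = 1.4e-04). Rec114, a cofactor of meiotic DNA breakage, moved in opposite directions, from 24.6 to 7.73 FPKM in wild-type cells and from 12.2 to 27.7 in the knockout, a difference between changes of 2.68 (SE 0.14, adjusted p = 1.7e-05). The interaction was negative for 7 genes, Tex15 (−1.22) and Tex11 (−1.22) among them, and positive for 2, against 21.7% and 21.1% of all entries. The 7 include Iho1 (named Ccdc36 in the annotation used), which reached 1 FPKM only in the wild-type 48 h libraries (at most 0.444 FPKM elsewhere), so the filter favoured its value of −1.20. Iho1 is also among the 9 genes that rose in wild-type cells, so that count and median lean on the filter too. Mei4, also among the 7 and lower in the knockout at 48 h (−1.16), reached 1 FPKM only in wild-type libraries. It had at most 0.547 FPKM in the knockout, so the filter favoured it in the same way.

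Prdm1 was set beside other genes of primordial germ cell specification. Of 13 tested (14 listed), 9 fell and 1 rose in wild-type cells (median log2 −1.45), against 25.6% and 30.9% of all entries. Tfap2c and Prdm14, transcription factors that act with Prdm1, fell from 18.6 to 1.04 FPKM (−3.26) and from 8.59 to 0.0188 (−3.23), and the receptor gene Kit fell by 2.73. In the knockout 7 fell and 3 rose (median −0.47), against 21.8% and 26.5%, with Tfap2c at −1.91, Prdm14 at −2.15 and the RNA-binding gene Nanos3, which protects early germ cells, at −2.25. The interaction was positive for 7 and negative for 2 of the 13, against 21.1% and 21.7% of all entries. Nanos3, as Dazl, was higher in knockout 2iL cells, at 12.3 FPKM against 1.52 in wild-type cells (log2 2.40). These genes are also active in naive cells. Germline genes known to be silenced by methylation went both ways (11 of 19 tested): 2 rose and 4 fell in wild-type cells, against 30.9% and 25.6% of all entries. In the knockout 3 rose and 4 fell, against 26.5% and 21.8%. Of these 11, Taf7l and Pdha2 reached 1 FPKM in 1 group only.

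The known repressors of germline genes were all expressed, 25 of 25 tested. In wild-type cells 7 rose and 14 fell by 48 h (median log2 −0.15 against 0.03 over all entries), where 30.9% and 25.6% of all entries did. In the knockout 11 rose and 5 fell (median 0.05 against 0.03), where 26.5% and 21.8% did. The de novo methyltransferases Dnmt3a and Dnmt3b rose in wild-type cells by 3.19 and 2.43, and in the knockout by 1.83 and 1.68. E2f6, whose product binds the E2F-type motif, rose from 7.79 to 19.3 FPKM in wild-type cells (1.20, SE 0.09, limma adjusted p = 2.9e-05). Its complex partner Tfdp1 was lower in the knockout in 2iL, at 72.2 against 167 FPKM (−1.20). The interaction was positive for 14 and negative for 5 of the 25 (21.1% and 21.7% of all entries), led by Dnmt3l (4.60) and Yaf2 (−2.10). Unlike Dnmt3a and Dnmt3b, Dnmt3l went down in wild-type cells, from 123.2 to 90.19 FPKM in the mean, and in the knockout up from 10.9 to 211.6. How these levels bear on the 7 genes was not tested. Over all these lists the filter dropped genes below 1 FPKM, so the counts leave out the silent members.

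**Figure D5:**
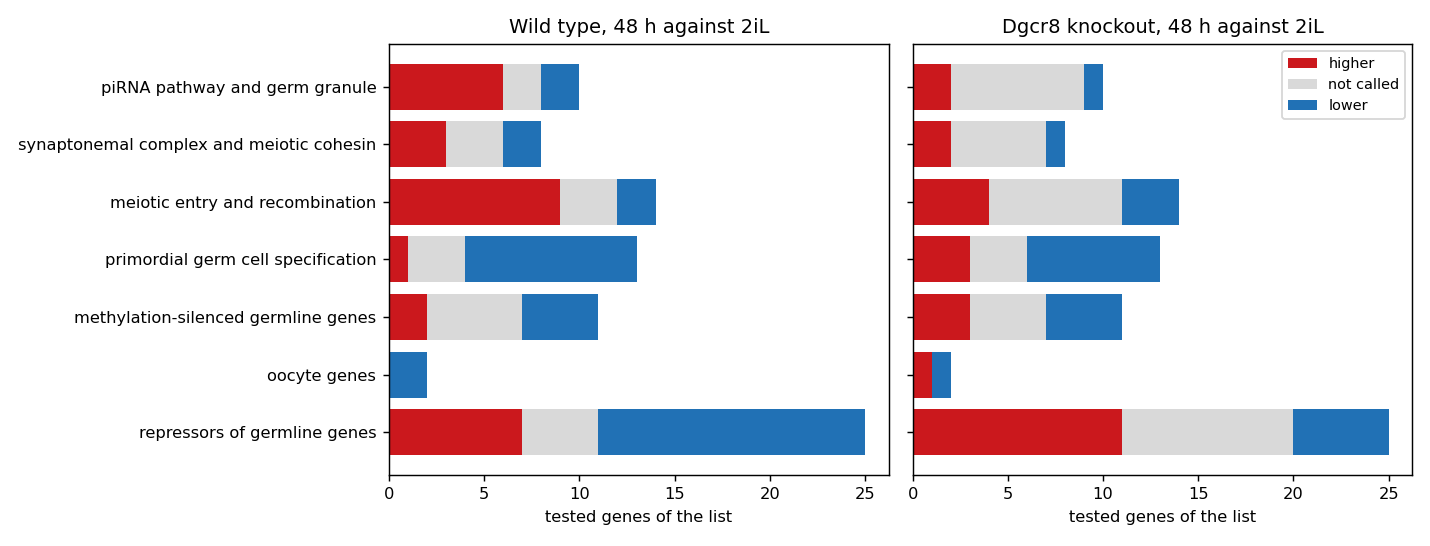
Number of tested genes in each list (x axis) that were called higher (red), not called (grey) or called lower (blue) at 48 h against 2iL, by limma adjusted p below 0.05, in wild-type (left) and Dgcr8 knockout cells (right). The piRNA pathway and germ granule list has 6 of 10 genes higher in wild-type cells and 2 of 10 in the knockout.

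Of the 3 genes most like each tested gene, those reported here were ranked by Pearson correlation of log2(FPKM + 1) over the 8 libraries, among 6051 entries that varied by at least 1 on that scale. These points fall into 4 groups, so the value mostly reflects 4 group means. Dmc1 (0.987) and Pdzrn3 (0.991) were among the 3 nearest to Ddx4. Nearest to Prdm1 were Ly75 (0.998) and Bdh1 (0.998). Nearest to Dazl were Pdzrn4 (0.996), Letmd1 (0.994) and the sulfotransferase Sult1a1 (0.993), all high in knockout 2iL cells. Nearest to Mael were Soga1 (0.993), Gprc5c (0.992) and Rtl6 (0.991). Nearest to Hormad1 were Zfp951 (0.998), Lxn (0.997) and Fstl1, a secreted glycoprotein (0.997). Nearest to Sycp3 were Kyat1 (0.989), the transcription factor Cebpb (0.988) and the tropomyosin Tpm4 (0.984). Between 79 (Mael) and 456 (Hormad1) entries were correlated above 0.95 with a given gene.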

How the data were processed

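Libraries were made by a dUTP protocol, per the labels' protocols. The authors deposited gene-level FPKM values (fragments scaled by gene length and by library), with mm10 as build and STAR 2.5.0 and Cufflinks 2.2.1 named, per the submitters' processing notes; the annotation and strand setting are not given in the sources used here. Repeated identifiers (56 of 41258 rows) were kept as separate entries. From these values log2(FPKM + 1) was fitted with limma 3.58.1 in R 4.3.3 (4 group means, moderated statistics with an intensity trend, 4 residual and 3.11 prior degrees of freedom) for the 13172 entries that reached 1 FPKM in 2 or more of the 8 libraries. A gene was called at a Benjamini-Hochberg adjusted p below 0.05 over all entries. Differences are therefore on the log2(FPKM + 1) scale and understate changes of low genes. With 2 libraries a group an exact test cannot go below 0.333. The series' design text calls the replicates biological without saying what was repeated, so p-values measure only the spread between them. The 7 genes, the lists and the motifs were chosen with earlier results of these data or the sequences known. Text names the 7 genes, at most the 4 largest called changes per list and comparison, and the 3 most similar genes, of which some are not reported here. Promoter windows came from RefSeq (GRCm38.p6) and matched all 7 genes. The fit was checked on simulated data. Alternatives were another pseudocount, other filters, 2 scalings, a replicate block, fits of 2 groups, and leaving out each library.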

Additional observations from a re-analysis of the deposited data

Results flagged for a closer look

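The change from 2iL to 48 h differed between wild-type and Dgcr8 knockout cells for each of the 6 tested genes, by a test of the difference itself (limma interaction term, adjusted over 13172 entries; 42.8% of entries were called). The knockout change minus the wild-type change on the log2(FPKM + 1) scale was 0.857 for Prdm1, −1.215 for Dazl, −1.219 for Ddx4, −1.10 for Mael, 0.894 for Hormad1 and −1.653 for Sycp3. For Prdm1 the value was 2.26 with a pseudocount of 0.1. Genotype and cell line cannot be told apart in these differences.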

How the results depend on the processing

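Of the alternative values for the 6 tested genes, 407 kept direction and side of the threshold, 11 lost their call, 1 gained one and 6 changed sign; all 11 lost calls concern Ddx4, Mael or Sycp3 between genotypes in 2iL. The changed signs belong to uncalled values near 0: Dazl in wild-type cells was −0.095 with quantile scaling and −0.04 to 0.131 when single libraries were left out, and Hormad1 in the knockout was 0.003 with quantile scaling and −0.099 to 0.094 when single libraries were left out. Leaving out single libraries gave 3 to 5 of the 6 genes higher and 0 to 1 lower in knockout 2iL cells, and no filter also gave 0 lower. With a mean of at least 5 FPKM, 8588 entries remained and of the 7 genes only Hormad1, so the genes called fell to 0 higher and 1 lower in wild-type cells, 0 and 0 in the knockout, 1 and 0 between genotypes in each condition, and 1 and 0 for the interaction. Entries called higher fell to 2450 (wild type), 2280 (knockout), 2532 (genotypes in 2iL) and 2893 (genotypes at 48 h), and the interaction to 3612 calls, 1607 of them negative; fewer entries were tested. Leaving a group with 1 library assumes that it varies like the others. With the replicate block, calls were 7222, 6102, 8195, 9323 and 5364 in the 5 comparisons and no call on the 6 genes changed; the labels do not say that numbers pair libraries, and correlations of same-numbered deviations were −0.153 to 0.18. Crossed numbers, added after seeing the data since that correlation was −0.118 in wild-type cells, gave 6950 calls there. Unknown depth limits what can be said of Sycp1 below 1 FPKM.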

Other observations

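Oocyte genes were nearly silent, with 2 of 12 tested. Sohlh2, a transcription factor of early oocytes and spermatogonia, stood at 3.53 FPKM in wild-type and 17.9 in knockout 2iL cells in the mean (log2 difference 2.06, SE 0.10, limma adjusted p = 5.5e-06), and at 2.38 and 31.2 at 48 h (3.25, adjusted p = 4.1e-07). Zp3, a protein of the egg coat, fell from 17.1 to 2.31 FPKM in wild-type cells and from 22.8 to 14.5 in the knockout, and these changes differed by 1.84 (SE 0.15, adjusted p = 1.1e-04). Wt1, the only somatic gonad marker above 1 FPKM, stood at 0.33 to 0.35 FPKM in wild-type 2iL libraries and at 12.8 to 13.1 at 48 h, and in the knockout at 2.38 to 2.56 and at 21.6 in both libraries.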
